A study of Homo sapiens with 8 samples.

Results

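The mRNA levels of 9 chemokine and chemokine receptor genes were examined in LP-1 cells, a human myeloma line, out of the 18564 genes listed. They were 3 ligands (CCL3, CCL4 and CCL5) and 6 receptors (CCR1, CCR2, CCR10, CXCR3, CXCR4 and CXCR5), found by gene symbol. CCL3 was chosen because it was lower in bortezomib-resistant (BR) than in wild-type (WT) cells, and the other genes were added to see which of them shared that difference, so that the BR against WT values of CCL3 are a description and carry no test. The labels give no bortezomib for WT cells, and BR cells had been cultured with bortezomib for 2 months, so that resistance and drug culture cannot be told apart. Both lines received either vehicle (DMSO in the titles, with the WT vehicle libraries also labelled untreated) or SI-2, a compound that inhibits the coactivator SRC-3, the latter at 25 nM for 24 h. There were 2 libraries in each of the 4 conditions, 8 in all, numbered 1 and 2 in the labels. The labels do not say whether replicates were separate cultures, while the study describes the BR libraries as independent experiments. The p-values measure the spread between these libraries, taken as independent. Within a line, same-numbered libraries tended to deviate together, as described further on.

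Chemokines are small secreted proteins that guide cell movement through receptors that couple to G proteins. CCL3 (MIP-1 alpha), CCL4 and CCL5 (RANTES) are inflammatory CC chemokines. CCR1 is a receptor of both CCL3 and CCL5. In myeloma, CCL3 made by plasma cells is known to promote osteoclast formation and bone destruction. CXCR4, the receptor of CXCL12, holds plasma cells in the bone marrow, and CCR10, the receptor of CCL27 and CCL28, is typical of plasma cells of mucosal sites.

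Library totals ran from 17997771 to 18570027 estimated counts, and the factors of TMM scaling from 0.972 to 1.055. All 8 plasma cell markers were above 3 counts in each line, and their summed level was 3032 to 3792 CPM (counts scaled to the size of the library, with TMM factors) in WT and 2196 to 3454 CPM in BR libraries. Summed T cell markers (5 of 6 with a row) were at 0.501 to 1.38 CPM in WT and 0.822 to 1.77 CPM in BR. Most of that was CD3G, at 0.389 to 1.36 CPM, while CD3E and TRAT1 were at 0 in all WT libraries. Summed monocyte and macrophage markers were at 2.97 to 4.89 CPM in WT and 3.66 to 5.27 CPM in BR. Most of that was LYZ, at 2.42 to 4.88 CPM, while FCGR1A was at 0 in all BR libraries. A single library (1 of 8) stood apart, since BR SI-2 replicate 2 held 172 genes with at least 10 counts there and at most 2 in any other library, against 0 to 2 such genes in each of the others. Their leading genes were PAEP, VCAN, GABRP and NID1, and CXCL14 was among them. The part of these genes in the values below was not tested, and each comparison was also fitted without that library.

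CCL3 lies beside near-identical copies, and reads that match several of them had been divided by the authors' estimation. The coding sequences of CCL3 and its copy CCL3L1 are shown because reads over identical stretches cannot be assigned to 1 of them, in GENCODE transcripts on the minus strand of GRCh38, from chr17:36088672-36090058 and chr17:36195286-36196673. Capitals mark the bases that differ in their alignment.
CCL3: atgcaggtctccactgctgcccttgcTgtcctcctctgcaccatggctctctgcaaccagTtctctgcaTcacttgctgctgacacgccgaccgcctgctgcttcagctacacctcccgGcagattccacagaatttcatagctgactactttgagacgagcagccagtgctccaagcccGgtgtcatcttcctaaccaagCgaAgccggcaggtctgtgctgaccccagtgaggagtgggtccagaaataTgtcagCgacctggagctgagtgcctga
CCL3L1: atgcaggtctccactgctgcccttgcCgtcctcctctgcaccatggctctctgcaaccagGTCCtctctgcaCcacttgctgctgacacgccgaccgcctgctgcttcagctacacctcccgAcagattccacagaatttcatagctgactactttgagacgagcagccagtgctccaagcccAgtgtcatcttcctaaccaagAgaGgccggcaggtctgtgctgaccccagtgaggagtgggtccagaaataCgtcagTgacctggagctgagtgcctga
The coding lengths were 279 and 282 bases, with 9 mismatches, a gap of 3 bases and 95.7% identity. The copies CCL3L1 and CCL3L3 together took 2.16, 7.56, 8.15 and 4.51 estimated counts in the WT libraries and 0, 1.98, 0 and 0 in the BR libraries. That was at most 0.708% of the counts of the 3 genes in any library, and with the copies summed the CCL3 difference stayed at a log2 fold change of -2.61. Where a read matched more than 1 of them, its source could not be known from these counts.

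CCL3 was lower in all 4 BR libraries than in any WT library, as were 4.36% of all genes. WT cells had 42.6 and 129.8 CPM with vehicle and 62.8 and 124 CPM with SI-2. BR cells had 6.83 and 18.0 CPM with vehicle and 16.5 and 17.3 CPM with SI-2. The highest BR value was thus under the lowest WT value, and the WT libraries numbered 2 were the highest of all. Means were 89.8 ± 43.7 CPM in WT and 14.7 ± 5.27 CPM in BR (SD, n = 4 each), a 6.11-fold lower fitted level in BR (log2 fold change -2.61, SE 0.39), given with no test. Within treatments, BR differed from WT by -2.79 (SE 0.60) under vehicle and by -2.46 (SE 0.58) under SI-2 on the log2 scale. Counts ran from 748.84 to 2344.44 estimated reads in WT and from 121 to 340.01 in BR. In bulk RNA, fewer cells that make a transcript and less of it per cell cannot be told apart.

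**Figure D1:**
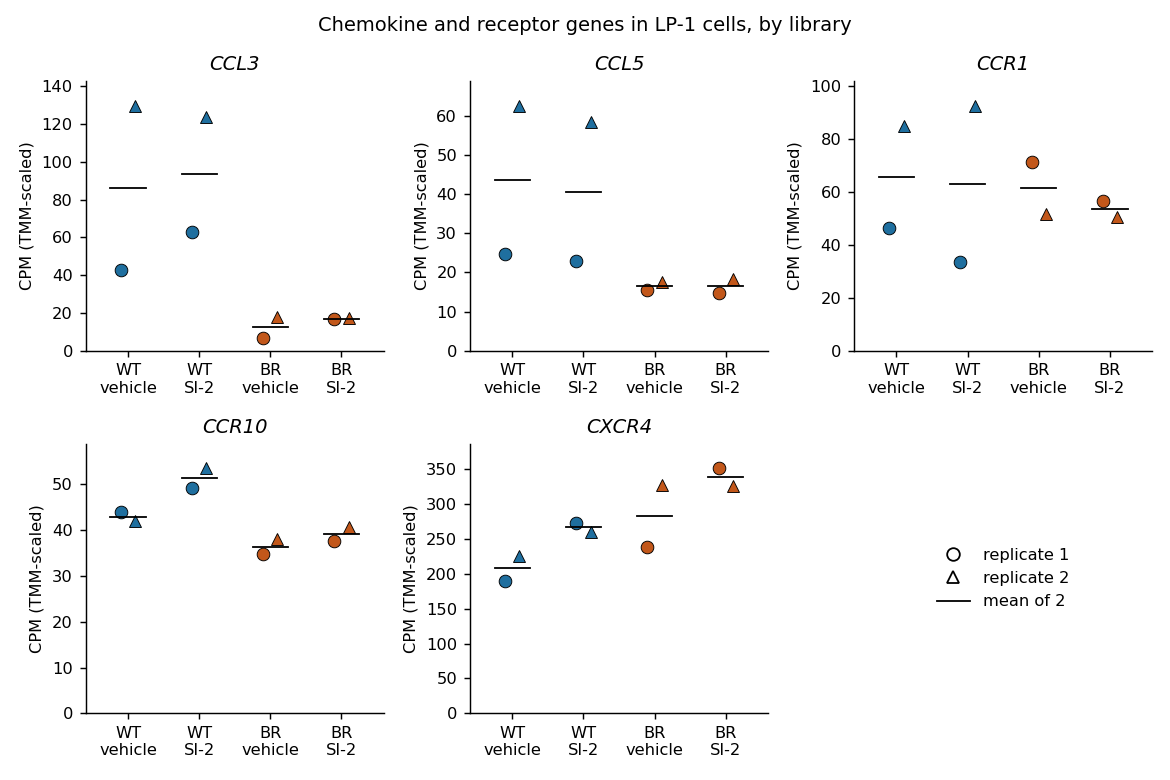
TMM-scaled CPM (y axis, linear from 0) of CCL3, CCL5, CCR1, CCR10 and CXCR4 in each library by condition (x axis), with circles for replicate 1, triangles for replicate 2 and a line at the mean of 2. CCL3 and CCL5 lie lower in BR (orange) than in WT (blue) cells, and CCL3, CCL5 and CCR1 differ between the WT libraries numbered 1 and 2.

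CCL5, the other abundant ligand, was also lower in every BR library. It stood at 24.6 and 62.7 CPM in WT vehicle and 22.9 and 58.4 CPM in WT SI-2 libraries. BR libraries held 15.6 and 17.5 CPM with vehicle and 14.7 and 18.3 CPM with SI-2. All BR libraries were below all WT libraries, as for 4.36% of all genes. The WT libraries numbered 1 were nearer to the BR libraries than to the WT libraries numbered 2. The fitted level was 2.55-fold lower in BR (log2 fold change -1.35, SE 0.31), and it did not pass the threshold of adjusted p = 0.05 (adjusted p = 0.11, quasi-likelihood F-test of edgeR). The log2 fold change was -1.40 (SE 0.49) under vehicle and -1.30 (SE 0.48) under SI-2, and neither treatment alone gave a call, where 0% and 0.0072% of all genes were called (540 and 568 at an unadjusted p under 0.05, and 28 and 34 called by DESeq2). CCL5 passed with DESeq2 (adjusted p = 0.00137), with the replicate number as a term, and without WT SI-2 replicate 1 (adjusted p = 0.032). Over 18 alternatives, apart from the split of the WT libraries described further on, the adjusted p ran from 0.00137 to 0.339.

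The third ligand, CCL4, had counts near 0 and did not pass the count filter. WT libraries held 6, 4.9, 3 and 6 estimated counts, and BR libraries held 1, 0, 1 and 1. In sums of rounded counts this was 20 in WT against 3 in BR, a ratio of 0.149 (exact 95% interval 0.0283 to 0.501, counting error only). CCL4 was therefore at or under 3 counts, which is about 0.164 CPM here, in every BR library and above it in all but 1 of the 4 WT libraries. All BR counts were under all WT counts, a pattern whose share over genes this low was not counted. Fitted with no count filter, CCL4 had a log2 fold change of -2.59 and did not pass the threshold (adjusted p = 0.198, quasi-likelihood F-test of edgeR).

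Among the receptors, CCR1, which binds both CCL3 and CCL5, did not share the pattern. WT libraries held 46.3 and 84.8 CPM with vehicle and 33.6 and 92.5 CPM with SI-2. BR libraries held 71.4 and 51.7 CPM with vehicle and 56.4 and 50.3 CPM with SI-2. All 4 BR values lay between the WT libraries numbered 1 and those numbered 2. The log2 fold change was -0.16 (SE 0.28, adjusted p = 0.811, edgeR), and it was 0.07 (adjusted p = 0.958) without WT SI-2 replicate 2.

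CCR10 had slightly lower values in BR. It was at 43.8 and 41.9 CPM in WT vehicle and at 49.2 and 53.4 CPM in WT SI-2 libraries. BR libraries had 34.8 and 37.9 CPM with vehicle and 37.6 and 40.6 CPM with SI-2. All BR libraries were below all WT libraries, as for 4.36% of all genes. The log2 fold change of -0.32 (SE 0.10) did not pass the adjusted threshold (adjusted p = 0.224, edgeR). It ran from -0.37 to -0.25 over 20 alternatives, which refit the same libraries. With all BR libraries below all WT libraries, leaving a library out could not change its direction. With both treatments joined, the spread within each line was narrow, 47.1 ± 5.22 CPM in WT and 37.7 ± 2.39 CPM in BR (SD, n = 4 each).

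CXCR4 had higher rather than lower values in BR. Its levels were 189.8 and 225 CPM in WT vehicle and 273 and 259 CPM in WT SI-2 libraries. In BR they were 238 and 327 CPM with vehicle and 351 and 326 CPM with SI-2. BR was above WT within each treatment, with only 2 libraries a side, and the share of all genes with this pattern was not counted. BR vehicle replicate 1 lay within the WT range when treatments were joined. The log2 fold change was 0.39 (SE 0.15, adjusted p = 0.268, edgeR), with 0.45 (SE 0.18) under vehicle and 0.34 (SE 0.18) under SI-2. It was positive in all 20 alternatives, from 0.30 to 0.50, and none brought it past the threshold.

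The other 3 receptors, which mark T cells and monocytes (CXCR3 and CCR2) or B cell follicle homing (CXCR5), were at or under 3 counts everywhere. Counts of CXCR3 in the WT libraries were 1, 3, 0 and 1, while all BR libraries were at 0. CXCR5 had 0, 1, 0 and 1 in WT and 0 in BR. CCR2 had 2 counts in WT SI-2 replicate 2, 1 in BR SI-2 replicate 2 and 0 elsewhere. No fold is given for these genes, and a difference between the lines was not detectable at this depth.

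**Figure D2:**
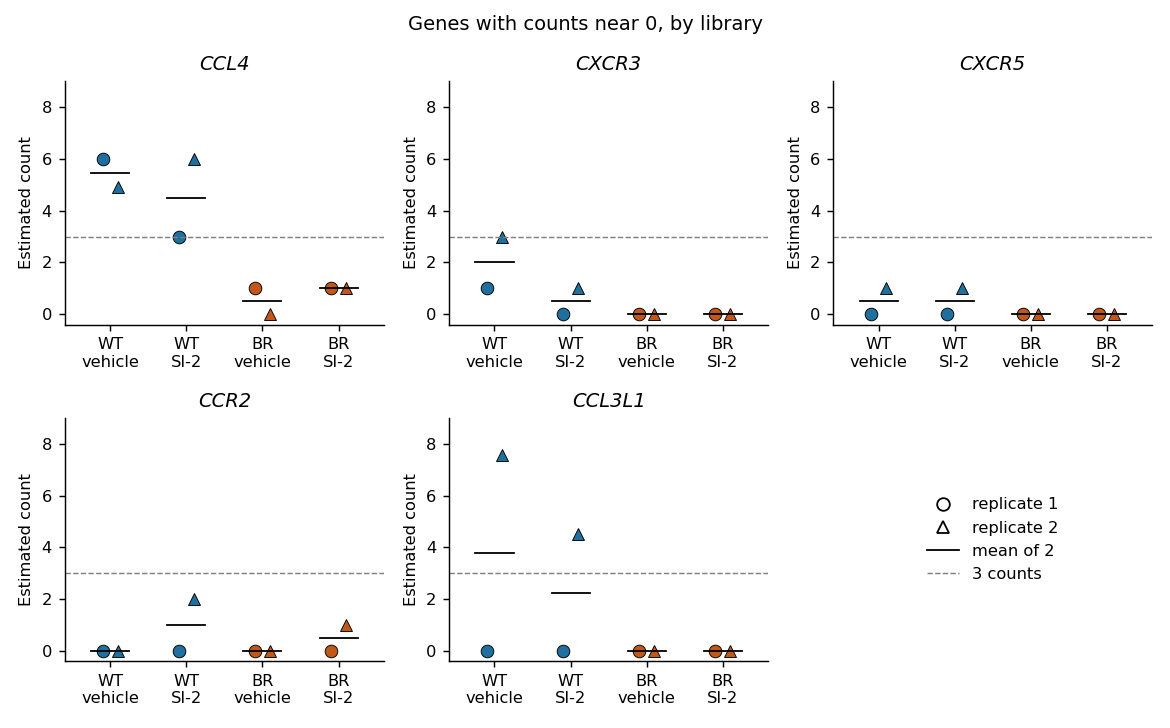
Estimated counts (y axis) of CCL4, CXCR3, CXCR5, CCR2 and the copy CCL3L1 in each library by condition (x axis), with circles for replicate 1, triangles for replicate 2 and a dashed line at 3 counts. CCL4 runs from 3 to 6 in WT and from 0 to 1 in BR libraries, and the receptors stay at 3 or under.

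Read per length as FPKM, the order of the levels differed between the lines. In WT cells CXCR4 led with 139.8 ± 23.5 FPKM, followed by CCL3 with 115 ± 55.6, CCR10 with 37.9 ± 4.36, CCL5 with 33.5 ± 16.9 and CCR1 with 23.7 ± 10.5 FPKM (SD, n = 4 each). The ranges of CXCR4 and CCL3 overlapped, as did those of CCR10, CCL5 and CCR1 between neighbours, whereas the lowest CCL3 value (53.8 FPKM) was above the highest of CCR10 (42.9 FPKM). In BR cells the order was CXCR4 with 188 ± 33.0 FPKM, CCR10 with 31.1 ± 3.09, CCR1 with 21.5 ± 2.89, CCL3 with 19.3 ± 7.29 and CCL5 with 13.5 ± 1.85 FPKM (SD, n = 4 each). There the ranges of CCR1 and CCL3 overlapped, as did those of CCL3 and CCL5, and those of CXCR4, CCR10 and CCR1 did not. CCL3 thus stood next to CXCR4 in WT and among the lowest of these 5 genes in BR.

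To ask how widely the lower level in BR was shared, 71 chemokine ligands and receptors were listed, of which 61 had a row. Of these, 27 never exceeded 3 counts, 15 exceeded it without passing the filter, and 19 were tested (9 ligands and 10 receptors). CCL3 was chosen from this contrast, so its own call is not counted. Of the other 18, 0 passed an adjusted p of 0.05 in edgeR, where 0.362% of all 13520 genes tested passed. At an unadjusted p under 0.05 there were 6 of the 18, where 14.4% of all genes were. The log2 fold change was negative for 10 (CCL3 among them) and positive for 9 of the 19. The median, CCL3 included, was -0.068 beside 0.0042 over all genes tested. Of the 18 genes other than CCL3, all 4 BR libraries were below all 4 WT libraries for CCL5 and CCR10, where 4.36% of all genes were. Among the 19 tested genes, CCL5 was thus the other ligand and CCR10 the receptor that lay lower in every BR library.

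Other chemokine genes had higher values in BR, at low levels. CX3CR1, the fractalkine receptor, was at 0.967, 0.886, 0.494 and 1.0 CPM in WT and at 1.98, 1.91, 1.64 and 2.09 CPM in BR. Its log2 fold change was 1.18 (SE 0.24, adjusted p = 0.0759, edgeR). CCR3, the eotaxin receptor, which also binds CCL5, was at 1.11 to 1.65 CPM in WT and 2.02 to 2.82 CPM in BR, a log2 fold change of 0.81 (SE 0.21, adjusted p = 0.144). These were the 2 of 19 genes with all BR libraries above all WT libraries, where 3.84% of all genes were. CXCL10, an interferon-induced ligand of CXCR3, had a log2 fold change of 1.22 (SE 0.51, adjusted p = 0.315) with overlapping libraries. Of the 18 genes other than CCL3, DESeq2 called 2, CCL5 and CX3CR1, where 2.95% of all genes were called. The edgeR fit with the replicate number as a term, described further on, called the same 2.

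**Figure D3:**
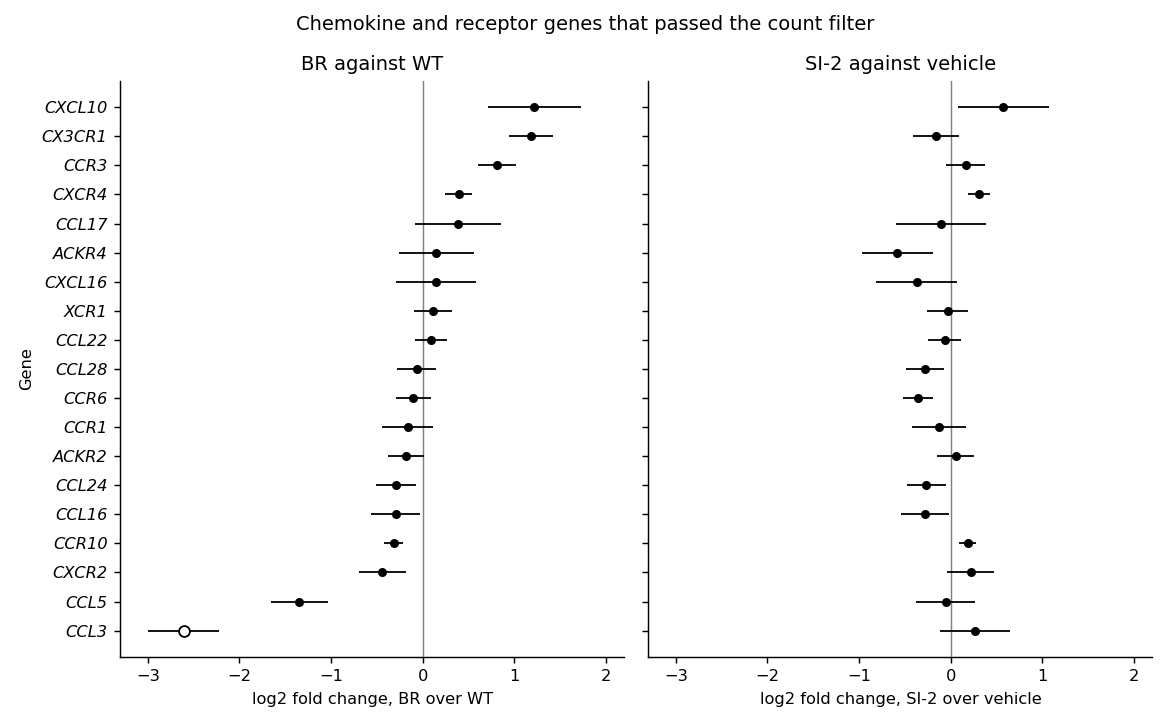
Log2 fold change (x axes, bars are standard errors) of the 19 chemokine and receptor genes that passed the count filter (y axis), for BR over WT on the left and SI-2 over vehicle on the right, 4 libraries a side. CCL3 (open circle, chosen from this contrast) and CCL5 lie farthest to the left in BR, and the SI-2 values lie between -0.58 and 0.57.

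None of the remaining tested genes of the list passed the threshold. CXCR2 had a log2 fold change of -0.44 (SE 0.25), CCL16 of -0.30 (SE 0.26) and CCL24 of -0.29 (SE 0.22). ACKR2, CCR6, CCL28, CCL22, XCR1, CXCL16 and ACKR4 lay between -0.18 and 0.15, and CCL17 was at 0.38 (SE 0.47). The ligand of CXCR4, CXCL12, did not pass this filter and is named because its values had been seen. In the fit over the 4 conditions it was tested and did not pass the threshold. Its log2 fold change there was 2.24 (SE 0.97, adjusted p = 0.967) under vehicle and 3.38 (SE 0.89, adjusted p = 0.885) under SI-2 (edgeR). The WT libraries held 1, 4, 3 and 2 counts of it and the BR libraries 16, 9, 10 and 47, the last of them the library that stood apart. Summed, this was 10 against 82 counts, a ratio of 8.13 (exact 95% interval 4.20 to 17.6, counting error only). Without that library it was 10 against 35 counts, a ratio of 4.62 (exact 95% interval 2.24 to 10.5, counting error only). Neither interval covers the choice of this gene after its values had been seen. All BR libraries were above every WT library, as for 3.84% of the genes that passed the filter.

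The WT libraries differed among themselves for the genes of the CCL3 axis. In both treatments the WT library numbered 2 was above the one numbered 1, by 3.05-fold (vehicle) and 1.98-fold (SI-2) for CCL3, by 2.55-fold in both for CCL5, and by 1.83-fold and 2.75-fold for CCR1. Of the 19 tested chemokine genes these 3 had replicate 2 over 1.5-fold above replicate 1 in both treatments, where 3.47% of all genes did. CXCL10 differed in the opposite direction, with 1.59 and 2.31 CPM in the WT libraries numbered 1 and 0.443 and 0.501 CPM in those numbered 2. In BR cells the same ratios were 2.64 and 1.05 for CCL3, 1.12 and 1.24 for CCL5, and 0.724 and 0.893 for CCR1. The comparison of the lines was therefore repeated with the 2 WT libraries of 1 number at a time against the 4 BR libraries. This split was chosen after these differences had been seen, so its values are a description with no test.

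Against the WT libraries numbered 1, CCL3 had a log2 fold change of -1.84, CCL5 of -0.52 and CCR1 of 0.52. Against those numbered 2, CCL3 had -3.11, CCL5 -1.87 and CCR1 -0.63. CCL3 and CCL5 were lower in BR against either pair, as had to be, since all their BR values lay under all WT values. The direction of CCR1 changed with the pair, which follows from all its BR values lying between the WT pairs. CCR10 was at -0.30 and -0.34, and CXCR4 at 0.43 and 0.36, so that these receptors depended little on the choice.

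Because CCL3, CCL5 and CCR1 differed in the same way among the WT libraries, the RefSeq promoters were searched, of which CCL3 and CCR1 had an entry. The 250 bases before the start are shown, on the minus strand of GRCh38.p14, from chr17:36090144-36090393 (CCL3) and chr3:46208314-46208563 (CCR1). Capitals mark matches, on either strand, to TATAAA, to the AP-1 motif TGANTCA, to the RUNX motif TGTGGT or to the NF-kB consensus.
CCL3: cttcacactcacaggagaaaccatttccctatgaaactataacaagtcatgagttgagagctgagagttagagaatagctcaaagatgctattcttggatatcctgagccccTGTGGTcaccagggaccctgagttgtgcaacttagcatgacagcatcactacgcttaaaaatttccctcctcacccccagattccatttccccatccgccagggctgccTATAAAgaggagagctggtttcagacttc
CCR1: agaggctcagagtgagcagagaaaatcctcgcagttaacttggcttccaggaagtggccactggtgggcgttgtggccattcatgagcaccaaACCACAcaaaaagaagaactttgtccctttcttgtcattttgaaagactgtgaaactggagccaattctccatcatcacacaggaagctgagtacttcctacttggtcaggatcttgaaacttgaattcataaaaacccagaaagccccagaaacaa
CCL3 had TATAAA beginning 29 bases and the RUNX motif 138 bases before the start, and CCR1 had the RUNX motif on the opposite strand 157 bases before it. Over 35116 windows of this length, 10.7% held TATAAA, 6.57% the AP-1 motif, 11.0% the RUNX motif and 9.96% the NF-kB consensus. A match describes the letters of the window and no binding was measured.

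No change with SI-2 passed the test for any of these genes. Across both lines the log2 fold change of SI-2 against vehicle was 0.27 (SE 0.38) for CCL3, -0.06 (SE 0.32) for CCL5, -0.13 (SE 0.29) for CCR1, 0.18 (SE 0.09) for CCR10 and 0.31 (SE 0.12) for CXCR4. The smallest adjusted p of these 5 was 0.96 (edgeR), and a value that misses the threshold does not show equal levels. Of these 5, CXCR4 and CCR10 were higher in both SI-2 than in both vehicle libraries of WT cells, and their BR libraries overlapped. With 2 libraries a side such a separation says little, and its share over all genes was not counted. Over all 13520 genes 0 were called, with 393 at an unadjusted p under 0.05 and 1 called by DESeq2. All SI-2 libraries were separated from all vehicle libraries for 1 of the 19 genes, CCR6, the receptor of CCL20 (log2 fold change -0.36, SE 0.16, adjusted p = 0.96), where 1.44% of all genes were. The difference in the SI-2 effect between the lines was called for 0 of 13896 genes in edgeR, with 74 at an unadjusted p under 0.05 and 1 called by DESeq2.

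Across the 8 libraries the profile closest to that of CCL3 belonged to KRT80, a keratin, with a root mean square difference of 0.504 on the centred log2 CPM scale. It was followed by MYBPC2, a muscle myosin-binding protein (0.622), IL22RA1, a subunit of the IL-22 receptor (0.652), DENND2D (0.669) and PPP1R26 (0.688). KRT80 ran from 4.32 to 9.23 CPM in WT and from 1.36 to 2.33 CPM in BR libraries, and MYBPC2 from 21.5 to 43.7 CPM in WT and from 8.30 to 13.2 CPM in BR libraries. CCL5 ranked 17 of 13518 genes by this measure (0.795). CXCR2 ranked 920, CCR10 1206, CCR1 4484 and CXCR4 11548, and of the 19 tested chemokine genes CCL5 was the nearest to CCL3. These values describe likeness over 8 libraries that include the BR against WT difference by which CCL3 was chosen.

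**Figure D4:**
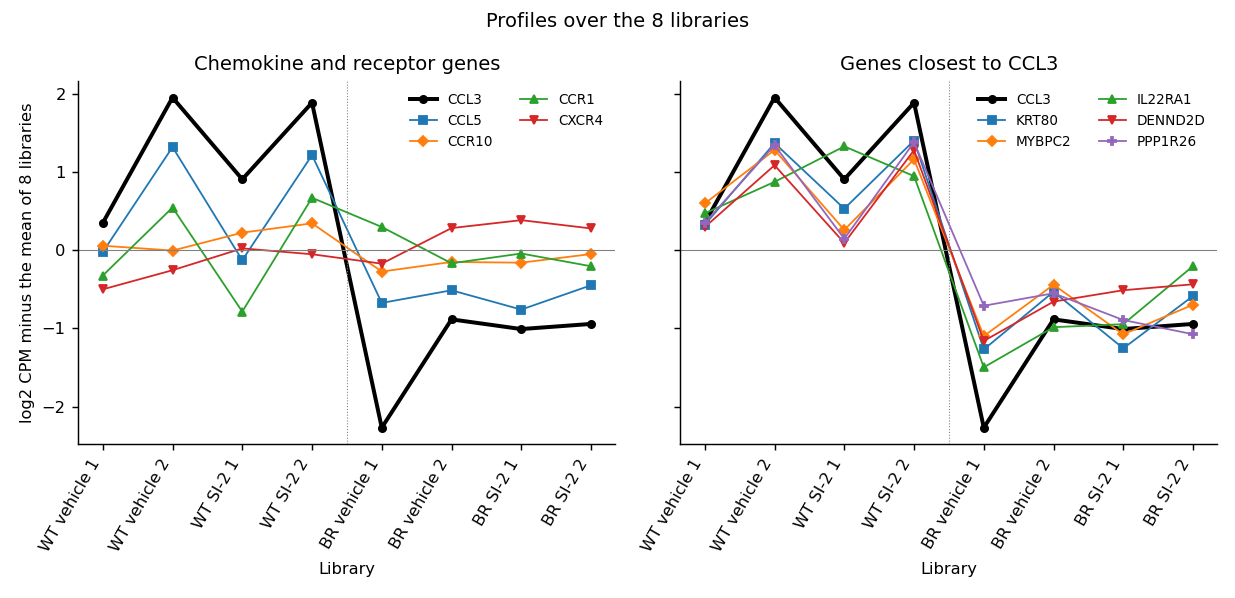
Log2 CPM minus the mean of the 8 libraries (y axis) in each library (x axis, WT left and BR right of the dotted line), for CCL3 with CCL5, CCR10, CCR1 and CXCR4 (left) and for CCL3 with the 5 genes of the closest profile (right). CCL5 follows CCL3 in being high in the WT libraries numbered 2 and low in all BR libraries. CXCR4 has its highest values in BR libraries, with BR vehicle replicate 1 below both WT SI-2 libraries.

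Genes that act downstream of chemokine receptors showed no called difference between the lines. Of 28 such genes, 22 were tested and 0 passed an adjusted p of 0.05 in edgeR, where 0.362% of all genes passed. At an unadjusted p under 0.05 there were 4 of the 22, beside 14.4% of all genes, and the median log2 fold change was 0.070. The most negative were the receptor kinases GRK6 (-0.64, SE 0.22, adjusted p = 0.234) and GRK3 (-0.39, SE 0.11, adjusted p = 0.176) and the focal adhesion kinase PTK2 (-0.15, SE 0.30). GRK3 ran from 9.90 to 10.3 CPM in WT and from 7.25 to 8.27 CPM in BR, and was the 1 of the 22 with all BR libraries below all WT libraries (4.36% of all genes). All BR libraries were above all WT libraries (3.84% of all genes) for 2 of the 22, GNB1, a G protein beta subunit (log2 fold change 0.19), and PIK3CD, a catalytic subunit of PI3 kinase (0.23). The most positive were the guanine nucleotide exchange factor VAV1 (0.58, SE 0.28, adjusted p = 0.373), the GTPase CDC42 (0.29, SE 0.11) and the exchange factor PREX1 (0.23, SE 0.24).

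Of 24 genes known for a part in myeloma bone disease, 21 had a row and 10 were tested. Of the 9 other than CCL3, 0 passed the threshold in edgeR or DESeq2, with 2 at an unadjusted p under 0.05, beside 0.362%, 2.95% and 14.4% of all genes. The most negative of the 9 were SDC1, the plasma cell proteoglycan syndecan-1 (-0.53, SE 0.18, adjusted p = 0.242), and VEGFA, an angiogenic factor (-0.40, SE 0.17, adjusted p = 0.314). The most positive were TNFRSF11A, which encodes the receptor RANK (0.36, SE 0.33), IL7 (0.33, SE 0.31) and TNFSF13B, which encodes BAFF (0.31, SE 0.30), each with overlapping libraries. The median log2 fold change over the 10 genes, CCL3 included, was 0.026 beside 0.0042 over all genes tested.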

How the data were processed

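RNA-seq of LP-1 cells (BGISEQ-500) was analysed in 8 libraries, grouped by their labels. The authors removed low-quality reads and deposited estimated counts per gene and per transcript, which need not be whole because shared reads were divided. The authors also deposited FPKM per gene, scaled by length and library size. Per the labels' processing notes BWA, Bowtie2, RSEM and hg19 are listed, with no role stated. The authors' 8 average columns, and their tables of fold changes and p-values, were left out.

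The members, gene lists and tests were chosen with earlier results of these data known. Named genes were the 9 genes, the listed chemokine genes that passed the filter, the 5 profiles closest to CCL3, and the called or 3 most extreme genes of 2 further lists. Counts were rounded, filtered (filterByExpr), scaled by TMM and tested in edgeR 4.0.16 (R 4.3.3) by its quasi-likelihood F-test, BR against WT over 8 libraries, SI-2 against vehicle with line as a term, and 1 fit over the 4 conditions, with Benjamini-Hochberg adjustment over all genes. The fit of BR against WT over 8 libraries had no term for treatment. Log2 CPM used a prior count of 2. Alternatives were upper-quartile and library size scaling, no filter, a filter of CPM 1 or more in 2 or more libraries, DESeq2 1.42.0, limma 3.58.1 on log2(FPKM + 1) and log2(FPKM + 0.1), a replicate block, condition terms, summed copies and omission of each library. The edgeR fits were tested on simulated counts with known changes, for the contrasts of line and of SI-2, and the DESeq2 and limma fits were not. Depth of 17997771 to 18570027 counts made 3 counts about 0.164 CPM, and intervals cover counting error only. Sequences came from GENCODE and RefSeq (GRCh38), a later build than that of the counts.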

Additional observations from a re-analysis of the deposited data

Results flagged for a closer look

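Within a line, 1 of the 4 libraries stood far from the others for 8 of 56 gene and line groups examined, by the gap to the nearest library as a share of the whole range (critical value 0.829). Chance gives about 1 in 20 for continuous values, and that rate does not apply to 5 of the 8, whose other 3 libraries were all at 0, so that the share is 1 by construction. Nor does it apply to CXCL8 and CXCL14, whose other 3 libraries held 0 to 2 counts. CCL3 in BR cells had a share of 0.867, with BR vehicle replicate 1 at 6.83 CPM under the other 3, at 16.5 to 18.0 CPM. Without that library the log2 fold change of CCL3 in BR against WT was -2.37. In the other 7 groups BR SI-2 replicate 2 was the high library, with a share of 0.987 for CXCL14, of 0.880 for CXCL8, and of 1 for CCL20, CXCL1, CXCL2, CX3CL1 and ACKR3. Counts there were 155 for CXCL14, 31 for CCL20, 9 for CXCL8, 7 for CX3CL1, 4.51 for CXCL1, 4.49 for CXCL2 and 4 for ACKR3, against 0 to 2 in every other library. This is the library with 172 genes that the others lacked, and the part of those genes in these values was not tested.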

How the results depend on the processing

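The log2 fold changes of BR against WT of CCL3 (-3.11 to -1.84), CCL5 (-1.87 to -0.52), CCR10 and CXCR4 kept their direction under all 20 alternatives. For CCL3, CCL5 and CCR10 no omission or split could reverse it, because in CPM all BR libraries lay below all WT libraries. CCL5 passed the threshold with DESeq2, the replicate block and without WT SI-2 replicate 1. The split of the WT libraries by number was chosen after the values were seen, and its values and counts are a description. CCR1 turned positive against the WT libraries numbered 1 (0.52). With a library left out, CCR1 in BR against WT ran from -0.38 to 0.065 (positive without WT SI-2 replicate 2), under vehicle from -0.45 to 0.42 (positive without WT vehicle replicate 2 or BR vehicle replicate 2), and under SI-2 from -0.80 to 0.66 (positive without WT SI-2 replicate 2). SI-2 against vehicle ran from -0.38 to 0.28 for CCL5 and from -0.50 to 0.084 for CCR1, each positive without WT vehicle replicate 2 or WT SI-2 replicate 1. The cause of these changes was not tested.

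Genes called in BR against WT numbered 49, and 18 with condition terms, 399 with DESeq2, 12 and 879 against the WT libraries numbered 1 and 2, and 21 to 125 when a library was left out, with 32 without BR SI-2 replicate 2. Of the chemokine and receptor genes other than CCL3, 0 were called in this fit, and 0 with condition terms. DESeq2 called 2 (CCL5 and CX3CR1) and limma on log2(FPKM + 1) called 1 (CX3CR1). Against the WT libraries numbered 1 and 2 the counts were 0 and 3. With a library left out, 1 (CCL5) was called without WT SI-2 replicate 1 and 0 otherwise. No count over all genes is given for that omission alone or for the limma fit, so no share stands beside these calls. Under vehicle 0 genes were called, and 1 with upper-quartile scaling, 3 with no filter, 1 with the CPM filter, 28 with DESeq2, and 1 and 4 with limma (pseudocounts 1 and 0.1). Under SI-2 1 gene was called, 34 with DESeq2, 0 with either limma fit, and 0 to 67 when a library was left out, with 67 without BR SI-2 replicate 1. That omission also called 67 genes for SI-2 in BR (range 0 to 67) and 1 chemokine gene, CXCL14, in both comparisons (range 0 to 1). DESeq2 called 1 gene each for SI-2 over 8 libraries, in BR, in WT and for the interaction of line and SI-2.

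Same-numbered libraries deviated together more within a line than across lines. The correlation over genes of the difference between numbers 2 and 1 was 0.465 for WT vehicle with WT SI-2. It was 0.409 for BR vehicle with BR SI-2. Across lines it ran from -0.155 (WT SI-2 with BR vehicle) to 0.202 (WT vehicle with BR vehicle). Libraries of a line with the same number may thus not be independent. No fit had a term for the number within a line, so the p-values do not allow for such a link, and its cause was not tested. With the replicate block, 155 genes were called in BR against WT and 1 gene under vehicle. Of the chemokine genes other than CCL3, CCL5 and CX3CR1 were called in BR against WT. The depth set the limit for CCL4, CXCR3, CXCR5 and CCR2.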

Other observations

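At the level of transcripts, the estimated counts of CCL5 were divided between 2 RefSeq transcripts, with 57.1% to 68.6% on NM_002985.2 and 31.4% to 42.9% on NM_001278736.1 over the 8 libraries. Both were lower in every BR library, with 157.84 to 217.95 counts in BR against 253.85 to 735.53 in WT for the former and 84.24 to 132.96 against 147.32 to 396.92 for the latter. CXCR4 had 5 transcripts, of which NM_003467.2 took 89.9% to 94.4% of the counts. The division of reads among transcripts of 1 gene is an estimate.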
